A study of Mus musculus with 7 samples.

Results

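The 50 genes described here are cell cycle and proliferation genes, chosen by name with earlier results of these data known, out of 40743 genes listed in the RNA-seq table of sorted retinal microglia (rMG). All 50 were found by symbol, and all 50 were among the 17496 genes tested, which reached 1 CPM in 3 or more libraries. They fall into 7 role groups: 10 cyclins, kinases and E2F factors of the G1 phase, 9 genes of origin licensing and the replication fork, 4 of nucleotide synthesis, 9 mitotic kinases, cyclins and their partners, 11 of the spindle, kinetochore and chromosome structure, 4 of the spindle checkpoint and the anaphase-promoting complex (APC/C), and 3 inhibitors of cyclin-dependent kinases (Cdk).

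The study asked how rMG without the transcription factor IRF8 respond to laser injury, which ruptures the layer under the retina and leads to choroidal neovascularisation (CNV). The 7 libraries analysed here all carry the label Irf8 KO and come from adult mice on a C57BL/6J background with the genotype Irf8-/- Cx3cr1 GFP/+, in which the reporter replaces a copy of Cx3cr1. In 3 of them the mice were unlasered, and in 4 the cells were taken a week after the laser. For a library, rMG of 3 to 4 mice were pooled, with an average of 10000 cells, sorted as CD45low CD11b+ Cx3cr1GFP/+ Ly6C- Ly6G-. The deletion of Irf8 is carried in the germline and is therefore not limited to rMG. For the lasered mice, the central 70% of each retina was used, a restriction that is not described for the unlasered mice, so that laser and retinal region cannot be told apart. Libraries of Irf8 WT mice were not analysed here.

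A cell that divides passes through G1, copies its DNA in S phase, prepares in G2 and separates its chromosomes in mitosis. D-type cyclins with Cdk4 release E2F factors in G1, E2F factors drive the genes of DNA replication, and the B-type cyclins with Cdk1 start mitosis, after which APC/C marks them for destruction. Microglia of the healthy retina divide rarely and are known to proliferate after injury. Transcripts of the mitotic genes are largely confined to cells in late S phase, G2 and mitosis, whereas D-type cyclins and Cdk4 are also transcribed in cells that do not divide.

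Total reads were between 20427558 and 36022954 in the unlasered libraries and between 37133297 and 45919042 in the lasered ones, and all lasered libraries were deeper. A level of 3 reads, the limit a count of 0 allows, corresponded to 0.0653 to 0.147 CPM (CPM, reads scaled to the same total in every library; counting error only). Irf8 itself was read in all libraries, at 489 to 530 CPM in unlasered and 463 to 582 CPM in lasered libraries, listed only jointly with an overlapping gene, Gm20388. Since a gene total does not show which exons were read, the level of Irf8 gave no check of the label, and the libraries are named by it. All 8 microglia markers were highly expressed, with a summed level of 26418 to 31245 CPM in unlasered and 24838 to 32099 CPM in lasered libraries. Of these markers, P2ry12 was lower in every lasered library than in any unlasered one, with 569, 412 and 498 against 257, 244, 332 and 404 CPM, and did not pass the test (log2 fold change -0.69, limma, adjusted p = 0.0693). Rod photoreceptor transcripts moved with the groups: 8 of 8 rod markers fell after laser, and their summed level was 1607, 15987 and 4732 CPM in unlasered libraries 1 to 3 and 852, 354, 673 and 238 CPM in lasered libraries 1 to 4. In the exact permutation test over libraries, the rod sums and the total reads each had p = 0.0571 (two-sided, 0.286 after adjustment over 10 measures), the smallest p that 3 against 4 libraries can give. The part of depth in the results below was not tested, apart from the fit that thinned the reads. The part of rod RNA was not tested. Without unlasered library 2, the unlasered rod sums of 1607 and 4732 CPM still lay above every lasered sum. A fit without that library therefore cannot separate rod RNA from laser. Of the other marker lists, the monocyte sum was 21.4 to 66.6 CPM in unlasered libraries and 134, 182, 32.8 and 11.3 CPM in lasered libraries 1 to 4, with Ly6c2 at no more than 0.891 CPM, and the dendritic cell sum was 18.0 to 40.8 against 27.9 to 63.6 CPM. The monocyte marker Ccr2 had 5.63, 6.37 and 14.2 CPM in unlasered and 81.5, 128, 19.7 and 7.57 CPM in lasered libraries. The dendritic cell marker Cd209a had 0.0979, 0 and 0.0833 CPM in unlasered and 7.61, 8.93, 2.87 and 0.242 CPM in lasered libraries, without overlap, and Flt3, another, had 3.28, 0.643 and 2.67 against 15.5, 27.5, 1.74 and 3.42 CPM. None of the 3 passed the test (limma, adjusted p = 0.186, 0.0825 and 0.263), and the part of such cells in the results below was not tested. Markers of Müller glia summed to 421 to 778 CPM in unlasered and 162 to 474 CPM in lasered libraries, endothelial markers to 13.0 to 49.8 against 10.9 to 24.4 CPM with Cldn5 at 0 in 6 libraries, pigment epithelium to 3.83 to 5.09 against 2.42 to 6.68 CPM, neutrophils to 0.730 to 11.5 against 0.566 to 8.22 CPM and lymphocytes to no more than 1.53 CPM.

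Of the 50 genes, 3 rose after laser: E2f1, the cell cycle transcription factor, and the mitotic cyclins Ccnb1 and Ccnb2 (limma on log2(CPM + 1), Benjamini-Hochberg adjusted p under 0.05 over all 17496 genes). This is 6% of the genes, beside 3.86% of all genes tested that were called higher. None was called lower, where the share of all genes was 3.07%. In both directions together, 6.93% of all genes were called. At an unadjusted p under 0.05, 13 of the 50 were higher and 1 lower, against 11.0% and 11.6% of all genes. edgeR on the recovered reads called 3 higher (E2f1, Ccnb2 and Cdkn1a) and 0 lower, beside 3.78% and 3.45% of all genes. DESeq2 called 7 higher and 1 lower, beside 6.73% and 6.53% of all genes. Positive log2 fold changes were obtained for 39 of the 50 genes (78%, beside 48.4% of all genes tested), with a median of 0.34 beside -0.01 for all genes. For 12 of the genes (24%) every lasered library lay above every unlasered library, and for 1 gene (2%), Ccnd2, below, beside 10.4% and 10.7% of all genes. Without unlasered library 2, the library with the most rod RNA, 5 genes were called higher (E2f1, E2f8, Ccnb1, Aurkb and Birc5), beside 2.11% of all genes in that fit. Only E2f1 was called without unlasered library 3 (4.77% of all genes called higher) or without lasered library 1, 2 or 3 (1.14%, 0.872% and 1.61%). Whether the labels stand for separate animals in each library is not stated beyond the pooling, so the p-values measure the spread between these libraries. In bulk RNA, more cells in the cycle and more RNA per cycling cell cannot be told apart.

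**Figure D1:**
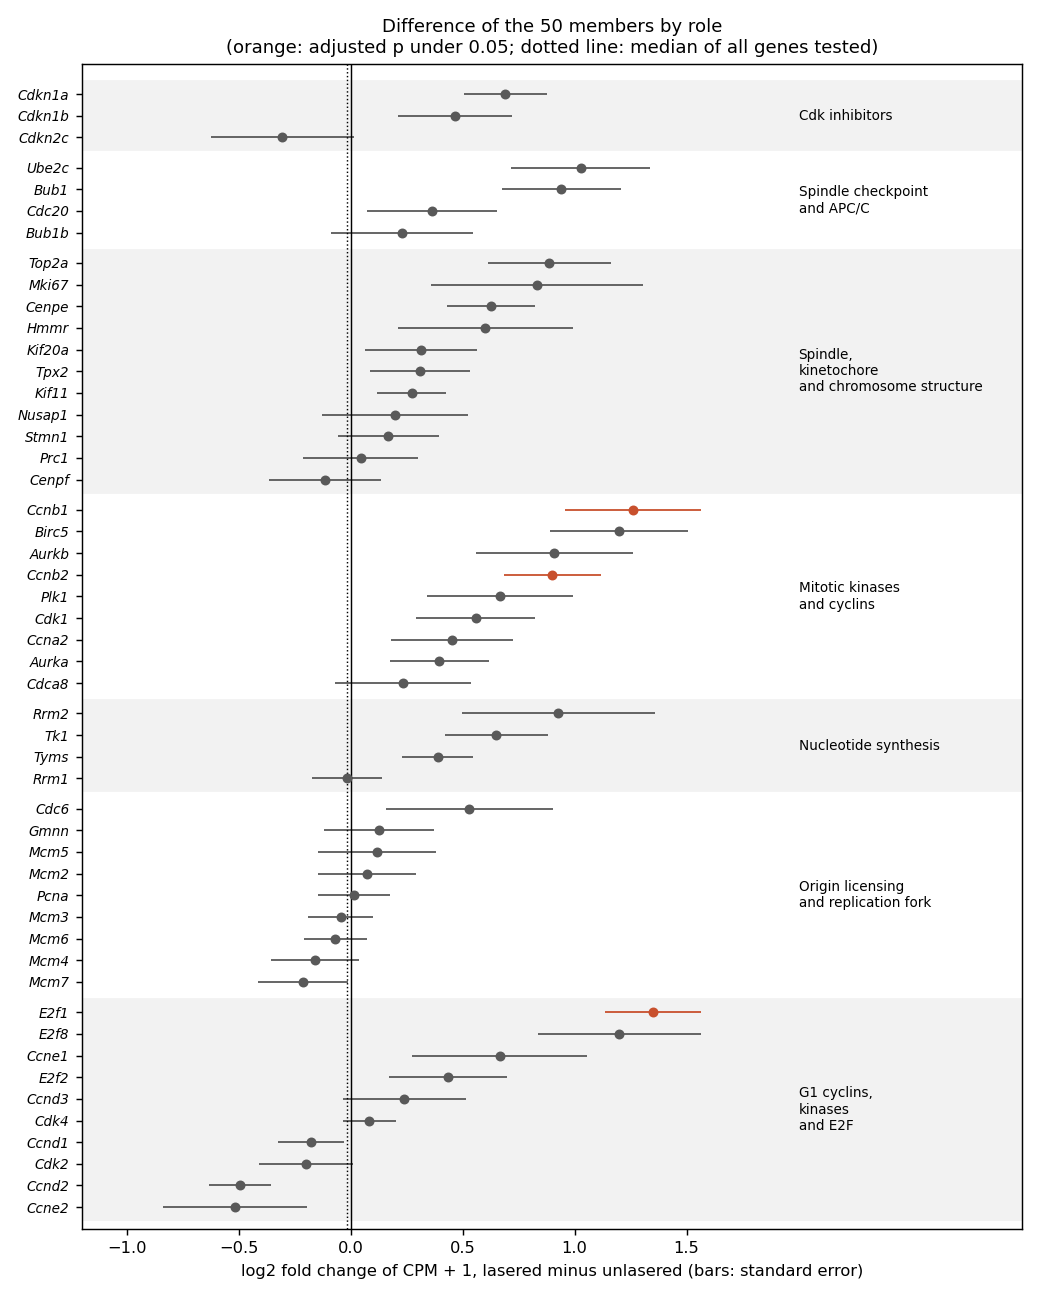
log2 fold change of CPM + 1, lasered minus unlasered, for each of the 50 genes (points, with the standard error as bars), sorted within the 7 role groups; the dotted line marks the median of all genes tested, -0.01. The 3 genes with an adjusted p under 0.05 (E2f1, Ccnb1 and Ccnb2) are in orange, and all 9 mitotic kinases, cyclins and their partners lie to the right of 0.

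The D-type cyclins and their kinase took a large share of the reads of the 50 genes in both groups. Together the 50 genes took 0.0923% to 0.106% of the reads of a library, 927 to 987 CPM in unlasered and 923 to 1058 CPM in lasered libraries. Ccnd1, Ccnd2, Ccnd3 and Cdk4 held 35.8% to 51.7% of that sum. To set genes beside each other, the mean level over all 7 libraries, both groups pooled, was divided by the kilobases of exon. The exons of all transcripts annotated for a gene were merged for this. That length can exceed the length of the transcripts read, so the order of genes is approximate. The level was 40.7 CPM per kilobase for Cdk4, 14.6 for Ccnd3, 13.6 for Ccnd2, 13.3 for Pcna, 12.03 for Mcm6 and 11.2 for Mcm3. Since the group means of some of these genes differ, their pooled levels give no order within a group. Most mitotic genes were lower on this scale. Ccnb2 had 4.82 CPM per kilobase, Cdk1 2.89, Top2a 1.13, Ccnb1 0.701, Mki67 0.478 and Prc1, a protein of the midzone where the cell divides, 0.289 CPM per kilobase. Some G1 and replication genes were low as well, among them Ccne1 with 0.564, E2f8 with 0.411 and Cdc6 with 0.377 CPM per kilobase.

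**Figure D2:**
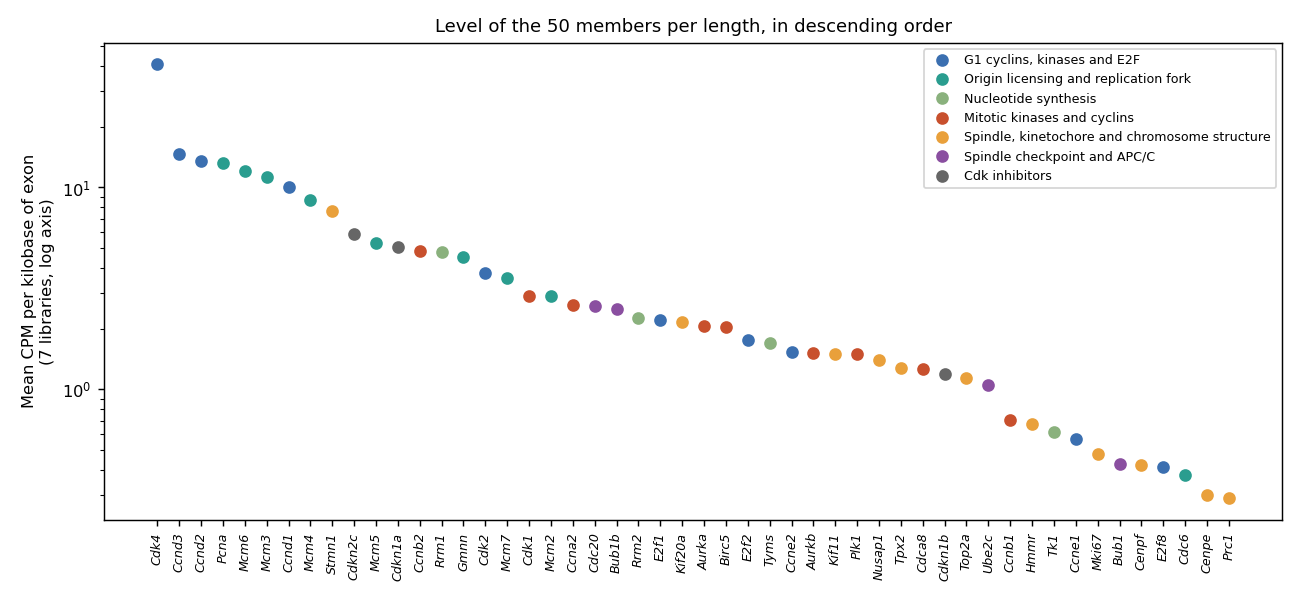
Mean CPM over 7 libraries divided by the exonic length in kilobases (log axis) for the 50 genes in descending order, coloured by role. The length is that of the merged exons of all annotated transcripts, so the order is approximate. G1 and replication genes hold the 8 highest places, from Cdk4 with 40.7 to Mcm4 with 8.65 CPM per kilobase. The mitotic genes spread from Stmn1 with 7.64 down to Prc1 with 0.289, and other G1 and replication genes lie among them, down to Cdc6 with 0.377.

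Of the 10 G1 genes, 6 had a log2 fold change above 0, E2f1 rose and the other 9 did not pass the test with limma or edgeR, while DESeq2 also called Ccnd2 lower. E2f1 (ENSMUSG00000027490, GRCm38 chromosome 2, 154559407 to 154569892, protein-coding), an activator of S phase genes, was measured at 3.33, 2.92 and 3.28 CPM in unlasered libraries 1 to 3 and at 7.91, 12.5, 11.3 and 7.62 CPM in lasered libraries 1 to 4. Every lasered library was well above the unlasered ones, which lay close together. The means were 3.17 ± 0.222 CPM (SD, n = 3) and 9.83 ± 2.44 CPM (SD, n = 4), a ratio of 3.1, and the log2 fold change was 1.35 with an SE of 0.215 (limma, adjusted p = 0.0117). These values rest on 68 to 118 reads per unlasered and 283 to 560 reads per lasered library. E2f1 passed the test in each fit with a library left out and with the reads thinned to the smallest library.

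E2f8, a repressor among the E2F factors, had 0.783, 1.96 and 0.0555 CPM in unlasered and 2.95, 2.72, 5.16 and 2.05 CPM in lasered libraries. The groups did not overlap, but unlasered library 3 held 2 reads, less than the 3-read limit, and unlasered library 2 came close to lasered library 4. The log2 fold change of 1.20 did not pass (limma, adjusted p = 0.0874), except without unlasered library 2 (adjusted p = 0.0435). Gm2788 overlaps an exon of E2f8 on the other strand, and the library kit does not mark strand, so that reads of the pair cannot be told apart. E2f2, an activator like E2f1, ranged from 6.51 to 7.0 CPM in unlasered and from 5.39 to 12.7 CPM in lasered libraries. Ccne1 and Ccne2, the E-type cyclins that start S phase with Cdk2, pointed in opposite directions and overlapped: Ccne1 ranged from 0.194 to 1.62 and from 0.862 to 3.99 CPM, Ccne2 from 4.64 to 7.83 and from 2.21 to 7.06 CPM. For Cdk2 the ranges were 18.9 to 33.1 and 17.8 to 24.6 CPM.

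Ccnd2 (ENSMUSG00000000184, chromosome 6, 127125162 to 127152193), a D-type cyclin, was the only one of the 50 genes for which all lasered libraries lay below all unlasered ones. Its levels were 157, 138 and 162 CPM in unlasered and 99.96, 132, 102 and 102 CPM in lasered libraries. Lasered library 2 stood apart from the other lasered libraries and came close to unlasered library 2. The means were 153 ± 12.5 CPM (SD, n = 3) and 109 ± 15.4 CPM (SD, n = 4). The log2 fold change, -0.49, missed the threshold (limma, SE 0.139, adjusted p = 0.0695), but passed with DESeq2 (adjusted p = 0.0211). Gm43126 and 9330179D12Rik overlap its exons on the other strand. Ccnd3 spread widely in both groups, with 109.7, 82.3 and 155 CPM in unlasered and 167, 173, 88.9 and 119.6 CPM in lasered libraries, and no difference passed the test (log2 fold change 0.24, limma, adjusted p = 0.661). Its log2 fold change was 0.02 without unlasered library 2 and 0.47 without unlasered library 3. Cdk4, the kinase of the D-type cyclins, was measured at 135, 133 and 116 CPM in unlasered and 128, 139, 129 and 147 CPM in lasered libraries, with a log2 fold change of 0.08 (SE 0.119, limma, adjusted p = 0.734). Exons of Ccnd3 and Cdk4 are overlapped on the other strand by Bysl and Tspan31. Ccnd1 lay between 46.5 and 59.0 CPM in unlasered and between 39.2 and 49.0 CPM in lasered libraries. In sum, the D-type cyclins and Cdk4 had 447 ± 41.0 CPM (SD, n = 3) in unlasered and 426 ± 54.5 CPM (SD, n = 4) in lasered libraries.

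Of the 9 genes of origin licensing and the replication fork, 5 had a log2 fold change above 0, and the median was 0.01. None of the 9 passed the test in either direction with limma, edgeR or DESeq2, and none had an unadjusted p under 0.05 with these tools. With limma, 11.0% of all genes were higher and 11.6% lower at that unadjusted threshold. Mcm6 (ENSMUSG00000026355, chromosome 1, 128331590 to 128359664), a subunit of the ring-shaped helicase that opens DNA, had 58.4, 55.3 and 58.8 CPM in unlasered and 61.0, 53.5, 59.7 and 46.1 CPM in lasered libraries. Mcm3, another subunit, had 50.4, 40.8 and 37.8 CPM in unlasered and 44.8, 40.3, 41.2 and 39.3 CPM in lasered libraries. The groups overlapped for both, and lasered library 4 was the lowest of the lasered libraries for each. The log2 fold changes were -0.07 (SE 0.139) and -0.04 (SE 0.144), and both changed sign with median-of-ratios scaling. The other subunits, Mcm2, Mcm4, Mcm5 and Mcm7, ranged from 12.6 to 40.2 CPM in unlasered and from 12.7 to 32.2 CPM in lasered libraries, with overlap for each. Part of the reads of Mcm7 was listed jointly with microRNA genes inside it. Pcna, the clamp that holds the DNA polymerase, ranged from 26.0 to 37.4 and from 29.9 to 36.0 CPM. Cdc6, which loads the helicase, had 0.587 to 1.78 CPM in unlasered and 1.13 to 5.07 CPM in lasered libraries, and its inhibitory counterpart Gmnn (geminin, which blocks renewed licensing) 4.69 to 8.91 and 5.39 to 8.56 CPM. The 9 genes summed to 230 ± 21.3 CPM (SD, n = 3) and 224 ± 23.5 CPM (SD, n = 4).

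Within nucleotide synthesis, 3 of 4 genes had a log2 fold change above 0 and no gene passed the test with limma, edgeR or DESeq2. At an unadjusted p under 0.05 with limma, 2 were higher, beside 11.0% of all genes. Tyms, thymidylate synthase, had 9.06, 8.85 and 7.91 CPM in unlasered and 10.8, 12.5, 12.2 and 10.8 CPM in lasered libraries. Tk1, the thymidine kinase of S phase cells, had 2.10, 2.37 and 1.86 CPM in unlasered and 3.87, 3.81, 5.62 and 2.64 CPM in lasered libraries. In both genes the groups were separate, by a margin of more than 1 CPM for Tyms and less than 1 CPM for Tk1. The log2 fold changes were 0.39 (SE 0.159) and 0.65 (SE 0.232), with adjusted p-values of 0.187 and 0.131 (limma). Exons of Tk1 are overlapped by Afmid on the other strand. Rrm1, the large and constantly present subunit of ribonucleotide reductase, had 49.1, 58.9 and 50.4 CPM in unlasered and 48.0, 43.5, 59.8 and 58.7 CPM in lasered libraries, with a log2 fold change of -0.02. The sign of that value flipped with median-of-ratios scaling. Rrm2, the subunit of that enzyme made in S phase, ranged from 1.05 to 8.26 CPM in unlasered and from 6.37 to 8.69 CPM in lasered libraries.

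The mitotic cyclins and kinases had a median log2 fold change of 0.67, and all 9 values were above 0. Of the 9, 2 rose (limma, beside the 3.86% of all genes named above), while edgeR called Ccnb2 and DESeq2 called Ccnb1, Ccnb2 and Birc5. Ccnb1 (cyclin B1, ENSMUSG00000041431, chromosome 13, 100778650 to 100786570), which activates Cdk1 at the entry into mitosis, had 1.03, 2.04 and 0.555 CPM in unlasered libraries and 3.04, 4.39, 6.51 and 3.12 CPM in lasered libraries. All lasered libraries were above the unlasered ones, which spread widely among themselves and held 20 to 70 reads. Mean levels were 1.21 ± 0.761 CPM (SD, n = 3) and 4.26 ± 1.62 CPM (SD, n = 4), which gave a ratio of 3.53 and a log2 fold change of 1.26 (SE 0.303, limma, adjusted p = 0.0418).

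Ccnb2 (cyclin B2, ENSMUSG00000032218, chromosome 9, 70407692 to 70421547), the other mitotic B-type cyclin, had 5.78, 4.53 and 3.53 CPM in unlasered and 10.5, 11.2, 7.27 and 8.81 CPM in lasered libraries, from 118 to 155 and from 327 to 503 reads. The lowest lasered library, number 3, was the highest one for Ccnb1. The means of 4.61 ± 1.13 CPM (SD, n = 3) and 9.45 ± 1.77 CPM (SD, n = 4) gave a ratio of 2.05 and a log2 fold change of 0.90 (SE 0.218, limma, adjusted p = 0.0425). Both calls were close to the threshold. Ccnb1 missed it with edgeR (adjusted p = 0.0603), and both missed it with no filter on low values (limma, adjusted p = 0.0976 for Ccnb1 and 0.0998 for Ccnb2). Ccnb1 kept an adjusted p under 0.05 only without unlasered library 2 among the fits that left out a library, with 0.0587 to 0.108 in the others, and Ccnb2 only without unlasered library 1, with 0.0613 to 0.122 in the others. Pseudogenes of both cyclins are listed separately (Ccnb1-ps and Ccnb2-ps), and reads that match a gene and its copy could be split between them.

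Birc5 (survivin, part of the complex that corrects chromosome attachment) showed the same order of groups as the B-type cyclins without passing the test in limma. It was measured at 3.38, 5.26 and 2.08 CPM in unlasered libraries and at 8.99, 10.3, 12.7 and 5.66 CPM in lasered libraries. Only unlasered library 2 came near lasered library 4. The log2 fold change was 1.20 (SE 0.309, limma, adjusted p = 0.0512). It passed with DESeq2 (adjusted p = 0.00562), with median-of-ratios scaling, and without unlasered library 2 or lasered library 4. Cdk1, the kinase of the B-type cyclins, had 8.91, 14.9 and 9.16 CPM in unlasered and 15.4, 17.9, 22.7 and 11 CPM in lasered libraries, where unlasered library 2 was above lasered library 4 (log2 fold change 0.56, SE 0.266, limma, adjusted p = 0.252). The pattern was similar for Ccna2, cyclin A2 of S phase and G2, with 9.40, 10.2 and 6.05 CPM in unlasered and 11.2, 11.5, 18.1 and 8.35 CPM in lasered libraries (log2 fold change 0.45, SE 0.271, limma, adjusted p = 0.364). The mitotic kinases Plk1, Aurka and Aurkb and Cdca8, a partner of Aurkb and Birc5, overlapped between the groups. Plk1 ranged from 0.888 to 2.98 and from 2.72 to 5.90 CPM, Aurka from 3.36 to 4.76 and from 4.12 to 7.10 CPM, Aurkb from 1.37 to 5.37 and from 4.20 to 7.59 CPM, and Cdca8 from 3.91 to 8.91 and from 4.12 to 8.75 CPM.

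**Figure D3:**
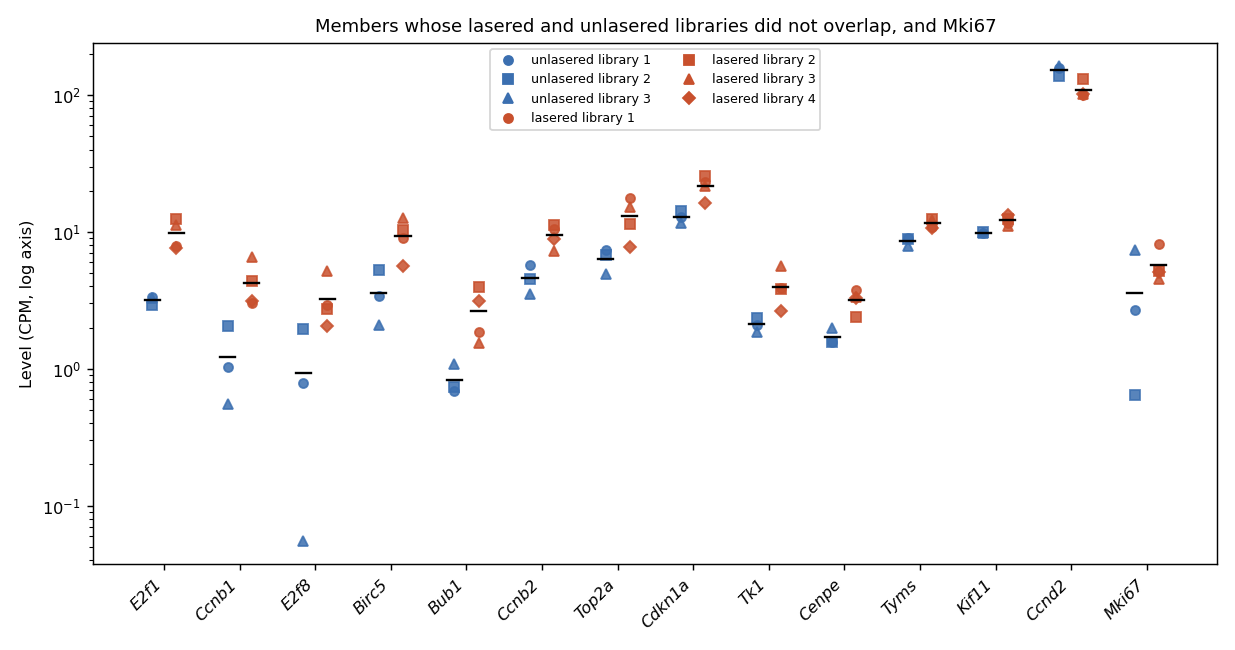
CPM (log axis) in each library (unlasered blue, lasered orange, a symbol per library) and the group means (black lines) for the 13 genes whose groups did not overlap and for Mki67, whose groups did. Unlasered library 3 has the lowest E2f8 value, 0.0555 CPM, and the highest unlasered Mki67 value, 7.41 CPM.

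The promoters of mitotic genes are known to carry a CCAAT box, bound by NF-Y, and the cell cycle genes homology region, through which the DREAM complex keeps genes silent in resting cells, while genes of S phase carry E2F sites. The windows of the RefSeq promoter table (GRCm38.p6, 250 bases before to 30 bases after the start) were searched on both strands for CCAAT, for the homology region as TTTGAA or TTCGAA, and for E2F sites as TTTCGCGC, TTTGGCGC, TTTCCCGC or TTTGCCGC, some of which can overlap each other. Windows were found for 40 of the 50 genes, with 2 windows for 6 of them. Of these, 4 windows are shown, chosen after their matches were seen: a B-type cyclin that rose, the proliferation markers Top2a and Mki67, and a licensing gene for contrast. All are on the minus strand and read 5′ to 3′, and capitals mark motif matches on either strand.

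Ccnb2 (chr9:70421525-70421804): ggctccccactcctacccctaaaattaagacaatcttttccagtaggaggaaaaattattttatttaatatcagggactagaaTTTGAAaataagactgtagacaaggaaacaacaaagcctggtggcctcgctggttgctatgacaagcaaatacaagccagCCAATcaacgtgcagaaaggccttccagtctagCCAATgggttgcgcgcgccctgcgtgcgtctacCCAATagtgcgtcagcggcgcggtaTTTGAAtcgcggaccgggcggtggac
Top2a (chr11:99024160-99024439): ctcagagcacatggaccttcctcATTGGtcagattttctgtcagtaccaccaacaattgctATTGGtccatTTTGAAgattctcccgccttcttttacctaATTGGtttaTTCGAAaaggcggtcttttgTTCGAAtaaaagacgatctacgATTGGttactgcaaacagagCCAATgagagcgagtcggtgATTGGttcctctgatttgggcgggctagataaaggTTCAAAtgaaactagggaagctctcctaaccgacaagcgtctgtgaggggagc
Mki67 (chr7:135716350-135716629): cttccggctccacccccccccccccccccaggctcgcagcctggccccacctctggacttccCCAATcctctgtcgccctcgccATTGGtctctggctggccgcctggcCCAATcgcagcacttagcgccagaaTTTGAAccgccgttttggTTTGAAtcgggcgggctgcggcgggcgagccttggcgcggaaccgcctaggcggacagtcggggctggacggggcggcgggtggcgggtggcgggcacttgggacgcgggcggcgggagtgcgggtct
Mcm6 (chr1:128359676-128359955): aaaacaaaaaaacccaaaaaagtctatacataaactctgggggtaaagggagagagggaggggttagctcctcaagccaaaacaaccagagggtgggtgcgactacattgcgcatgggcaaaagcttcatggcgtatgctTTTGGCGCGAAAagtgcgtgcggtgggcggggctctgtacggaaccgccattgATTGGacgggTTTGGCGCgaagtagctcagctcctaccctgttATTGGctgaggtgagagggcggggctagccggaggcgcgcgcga

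Ccnb2 held 3 CCAAT boxes and 2 homology regions, Top2a 6 and 4, and Mki67 3 and 2, with no E2F site of these letters in any of them. Mcm6 held 3 E2F sites, 2 of which overlap each other, and 2 CCAAT boxes. Of the 20 windows of genes in the 3 mitotic role groups, 18 (90%) held a CCAAT box, 14 (70%) a homology region, 14 both and 1 (5%) an E2F site. The 2 windows of Prc1 among them overlap, so that its CCAAT box and its homology region are counted in both. Among the 26 windows of the other genes these were 16 (61.5%), 4 (15.4%), 4 and 6 (23.1%). Over all 32851 windows of the table the shares were 36.1%, 18.4%, 6.92% for both and 2.12%. The window of Ccnb1 held 2 CCAAT boxes and no homology region, that of Birc5 held none of the motifs, and that of E2f1, which lies downstream of the gene start in GENCODE M21, held none either. A match of letters is a description and shows no binding.

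The 11 genes of the spindle, kinetochore and chromosome structure had a median log2 fold change of 0.31, and 10 of the 11 values were above 0. None passed with limma or edgeR, while DESeq2 called 1 higher (Top2a). At an unadjusted p under 0.05 with limma, 2 were higher, beside 11.0% of all genes. Top2a (ENSMUSG00000020914, chromosome 11, 98992943 to 99024189), the topoisomerase that untangles sister chromosomes, had 7.34, 6.83 and 4.97 CPM in unlasered and 17.8, 11.5, 15.2 and 7.78 CPM in lasered libraries. Lasered library 4 was within 1 CPM of unlasered library 1, and the other lasered libraries were well above. The means were 6.38 ± 1.25 CPM (SD, n = 3) and 13.1 ± 4.38 CPM (SD, n = 4) and the log2 fold change was 0.89 (SE 0.275, limma, adjusted p = 0.0912). Without lasered library 4 it was called, as it was with DESeq2.

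Mki67 (ENSMUSG00000031004, chromosome 7, 135689784 to 135716361), which encodes the proliferation marker Ki-67, did not separate the groups. It had 2.69, 0.643 and 7.41 CPM in unlasered libraries, from 55, 22 and 267 reads, and 8.18, 5.14, 4.55 and 5.06 CPM in lasered libraries. Unlasered library 3 was above 3 of the 4 lasered libraries, and the unlasered libraries spread more widely than the lasered ones. The log2 fold change was 0.83 with an SE of 0.473 (limma, adjusted p = 0.340), and it ranged from 0.24 to 1.42 over the alternative analyses, without passing in any of them. Among the unlasered libraries it was lowest in library 2 and highest in library 3, while over the 24 genes of the 3 mitotic role groups unlasered library 2 had the highest unlasered value for 17 and unlasered library 3 the lowest for 16.

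Kif11, a motor that pushes the spindle poles apart, had 9.74, 9.96 and 9.88 CPM in unlasered and 11.7, 12.5, 11.1 and 13.2 CPM in lasered libraries, a small step between tight groups (ratio 1.23, log2 fold change 0.27, SE 0.154, limma, adjusted p = 0.334). Cenpe, a motor of the kinetochore, had 1.57, 1.58 and 2.0 CPM in unlasered and 3.76, 2.41, 3.35 and 3.31 CPM in lasered libraries (log2 fold change 0.63, SE 0.196, limma, adjusted p = 0.0941). In both, all lasered libraries were higher, with 32 to 72 reads of Cenpe per unlasered library. Stmn1, which destabilises microtubules, had 15.8, 16.6 and 9.16 CPM in unlasered and 17.4, 15.7, 15.5 and 12.6 CPM in lasered libraries, and its log2 fold change of 0.17 turned negative without unlasered library 3. The other 6 genes overlapped between groups. Kif20a ranged from 5.83 to 9.49 and from 7.78 to 14.0 CPM, Tpx2 from 4.06 to 6.31 and from 5.04 to 8.47 CPM, Nusap1 from 2.83 to 9.61 and from 5.05 to 6.70 CPM, Hmmr from 0.888 to 5.14 and from 2.92 to 6.41 CPM, Prc1 from 1.47 to 2.99 and from 1.59 to 3.46 CPM, and Cenpf, the gene with a negative value, from 5.64 to 9.40 and from 4.74 to 8.29 CPM. Tpx2 and Nusap1 include reads listed jointly with another gene.

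The spindle checkpoint and APC/C genes had a median log2 fold change of 0.65 and 4 of 4 values above 0. None passed with edgeR or in the main limma fit, and DESeq2 called Bub1 higher. At an unadjusted p under 0.05 with limma, 2 were higher, beside 11.0% of all genes. Bub1, a checkpoint kinase, had 0.685, 0.730 and 1.08 CPM in unlasered and 1.86, 3.99, 1.55 and 3.15 CPM in lasered libraries. Lasered libraries 2 and 4 were the high ones, whereas lasered library 4 was the lowest lasered library for 12 of the 24 mitotic genes. The ratio of the means was 3.17 and the log2 fold change 0.94 (SE 0.267, limma, adjusted p = 0.0704), from 14 to 39 reads per unlasered library. Bub1 passed with the reads thinned to the smallest library (limma, adjusted p = 0.0357). The thinning was 1 random draw, and how far this value depends on the draw was not tested. Bub1b, its partner in the checkpoint, had 7.49, 14.4 and 7.25 CPM in unlasered and 13.3, 16.1, 9.82 and 6.89 CPM in lasered libraries (log2 fold change 0.23, SE 0.316). Cdc20, the activator of APC/C, had 4.36, 5.34 and 2.36 CPM in unlasered and 6.96, 6.48, 3.40 and 4.82 CPM in lasered libraries (log2 fold change 0.36, SE 0.291). Both overlapped between the groups, with adjusted p-values of 0.726 and 0.510 (limma). With each library left out in turn, their log2 fold changes ranged from 0.06 to 0.52 for Bub1b and from 0.10 to 0.56 for Cdc20. Ube2c, the ubiquitin-conjugating enzyme of APC/C, ranged from 0.555 to 2.37 and from 2.24 to 5.20 CPM.

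Of the 3 Cdk inhibitors, 2 had a log2 fold change above 0, and none passed in the main limma fit, while edgeR and DESeq2 each called Cdkn1a higher. Cdkn1a also passed in limma with median-of-ratios scaling (adjusted p = 0.0331) and without lasered library 4 (adjusted p = 0.0397). Cdkn1a (p21, ENSMUSG00000023067, chromosome 17, 29090976 to 29100727), a target of p53 that halts the cycle, had 12.9, 14.3 and 11.6 CPM in unlasered and 23.2, 25.7, 21.6 and 16.4 CPM in lasered libraries. All lasered libraries were above the unlasered ones, with library 4 the closest. Its means were 12.9 ± 1.32 CPM (SD, n = 3) and 21.7 ± 3.91 CPM (SD, n = 4), and the log2 fold change was 0.69 (SE 0.185) and an adjusted p of 0.0585 with limma. AC167363.2 overlaps its exons on the other strand. Cdkn1b (p27), which holds cells in G1, had 2.99, 6.69 and 3.50 CPM in unlasered and 7.07, 5.68, 5.12 and 6.87 CPM in lasered libraries (log2 fold change 0.47, SE 0.256, limma, adjusted p = 0.321). Cdkn2c (p18), an inhibitor of Cdk4 and Cdk6, had 15.8, 30.1 and 9.85 CPM in unlasered and 12.2, 15.3, 15.7 and 11.2 CPM in lasered libraries. Its log2 fold change of -0.30 (SE 0.321, limma, adjusted p = 0.634) rested on unlasered library 2 and was 0.10 without it.

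Summed by role, the means of the 3 mitotic groups were higher in the lasered libraries and those of the G1 and licensing groups were slightly lower. The mitotic kinases, cyclins and partners summed to 42.3, 59.0 and 31.3 CPM in unlasered and 69.9, 80.6, 92.8 and 55.9 CPM in lasered libraries, a ratio of means of 1.69, with unlasered library 2 above lasered library 4. The spindle, kinetochore and chromosome group summed to 65.7, 74.4 and 57.9 CPM and to 98.4, 81.6, 83.1 and 77.5 CPM without overlap, a ratio of 1.29. For the checkpoint and APC/C group the ratio was 1.46, for nucleotide synthesis 1.11, for the Cdk inhibitors 1.15, for the G1 group 0.972 and for the licensing group 0.974, each with overlap. Taking the 24 mitotic genes together, 23 had a log2 fold change above 0, with a median of 0.51, and their sum was 122, 156 and 100.5 CPM in unlasered and 194, 193, 196 and 150.4 CPM in lasered libraries. The number of positive values was 20 to 24 and the median 0.30 to 0.59 over the alternative analyses, and without unlasered library 3 they were 20 and 0.30. Of the other cell types, the monocyte and dendritic cell sums given above were highest in lasered libraries 1 and 2, and lasered library 4 had the lowest lasered value of both the monocyte sum and the mitotic sum. Lasered library 3, with the highest mitotic sum, had a monocyte sum of 32.8 CPM, below unlasered libraries 1 and 3 with 61.6 and 66.6 CPM, of which Plac8 held 47.0 and 45.6 CPM. Ccr2 and Cd209a were higher in lasered library 3 than in any unlasered library, and the part of such cells in the mitotic sum was not tested. No test is given for the sums, as the genes were chosen with earlier results of these data known.

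**Figure D4:**
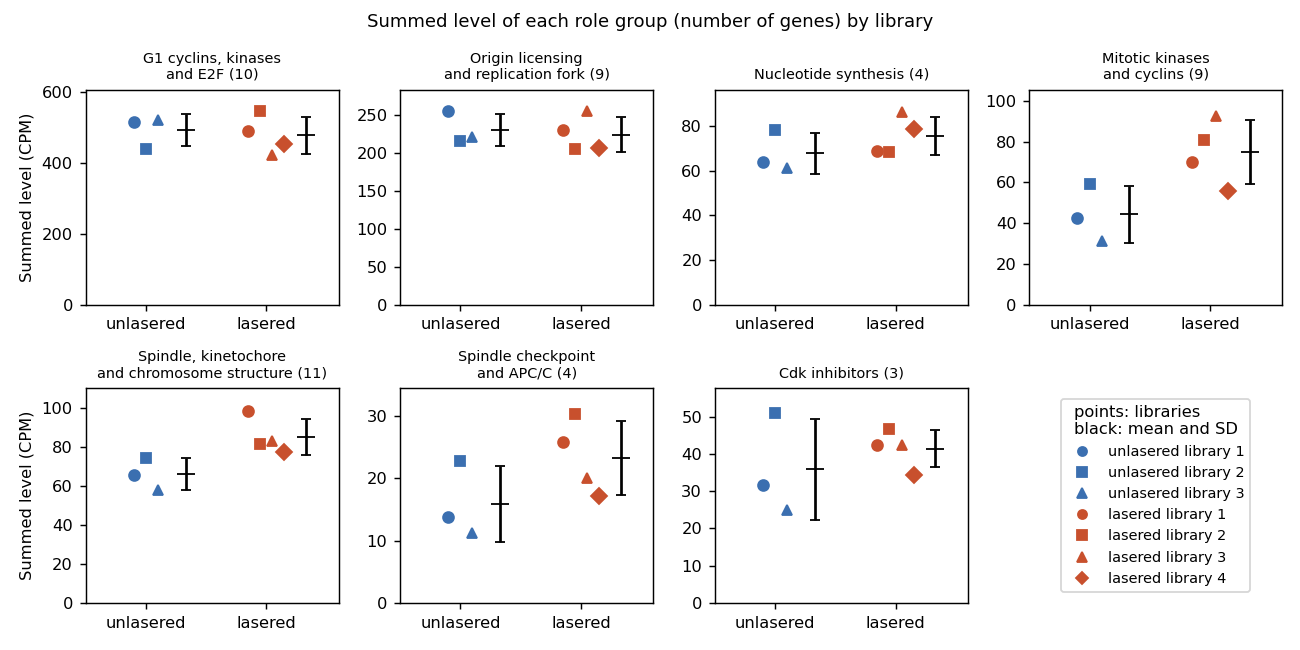
Summed CPM of each role group in every library (points, a symbol per library) with the mean and SD of each group of libraries in black; each panel has its own axis, starting at 0. The means of the mitotic panels are higher in lasered libraries. Unlasered library 2 lies above lasered library 4 for the kinases and cyclins (59.0 and 55.9 CPM) and above lasered libraries 3 and 4 for the checkpoint and APC/C group, and in the G1 and licensing panels the 2 kinds of library overlap.

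Further cell cycle genes outside the 50 were taken from 3 lists. Of 46 further G1/S genes, 45 were tested, 19 had a log2 fold change above 0 and the median was -0.11. With limma 1 rose and 2 fell, edgeR called 1 higher and 0 lower, and DESeq2 3 higher and 2 lower. Of 50 further G2/M genes, 48 were tested, 38 were above 0 and the median was 0.41. Here 5 rose and none was called lower (limma; at an unadjusted p under 0.05, 14 were higher and 0 lower), while edgeR called 4 higher and DESeq2 8 higher, neither calling any lower. Among 18 inhibitors and p53 targets, 17 were tested, 7 were above 0 with a median of -0.09, and 1 rose and 1 fell. The background for these counts is the share of all genes that the same tool called, 3.86% higher and 3.07% lower with limma, 3.78% and 3.45% with edgeR, and 6.73% and 6.53% with DESeq2. At an unadjusted p under 0.05 with limma, the shares were 11.0% higher and 11.6% lower. The G2/M count was 0 to 2 in the fits that left out a library. It was 1 (Ccnf) without unlasered library 2, beside 2.11% of all genes called higher in that fit. Without lasered library 2 it was 0, beside 0.872% of all genes.

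Ccnf (cyclin F), a subunit of a ubiquitin ligase, had the largest log2 fold change of these lists, 1.70 (SE 0.398, limma, adjusted p = 0.0385), with 0.441, 4.44 and 2.08 CPM in unlasered and 11.3, 8.31, 7.32 and 7.22 CPM in lasered libraries. Some of its reads were listed jointly with Mir5134, and edgeR did not call it. Cdc25b, a phosphatase that activates Cdk1, had 1.96, 2.04 and 2.61 CPM in unlasered and 3.74, 9.22, 6.58 and 7.59 CPM in lasered libraries (log2 fold change 1.23, limma, adjusted p = 0.0321). Its exons are overlapped by Spef1 on the other strand. Knl1, a scaffold of the kinetochore, had 1.27, 0.555 and 0.555 CPM and 1.86, 3.30, 4.14 and 3.15 CPM (log2 fold change 1.19, limma, adjusted p = 0.0302). Cenpa, the histone that marks the centromere, had 6.71, 8.79 and 7.63 CPM and 15.0, 15.1, 20.9 and 12.4 CPM (log2 fold change 0.93, limma, adjusted p = 0.0319). In all 4 genes the groups were separate. Of the 7 fits that left out a library, Ccnf and Cenpa were each called in 1 (without unlasered library 2 and without lasered library 4), Cdc25b in 2 (without unlasered library 3 or lasered library 1) and Knl1 in 2 (without unlasered library 1 or lasered library 1).

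Among the further G1/S genes, Cdc7, the kinase that fires replication origins, fell, with 3.13, 5.84 and 3.61 CPM in unlasered and 0.929, 1.63, 2.24 and 0.862 CPM in lasered libraries (log2 fold change -1.11, SE 0.273, limma, adjusted p = 0.0451). Chaf1b, which loads histones behind the replication fork, rose from 2.84, 1.81 and 1.97 CPM to 4.96, 4.79, 5.62 and 3.88 CPM (log2 fold change 0.86, limma, adjusted p = 0.0401). The inhibitor Cdkn1c (p57), which keeps cells out of the cycle, fell from 7.73, 7.48 and 6.02 CPM to 2.40, 1.78, 1.94 and 2.88 CPM (log2 fold change -1.32, SE 0.201, limma, adjusted p = 0.0106), and was called lower in each fit with a library left out. Gm44732 overlaps it on the other strand. Gadd45b, a stress-induced growth arrest gene, rose from 1.27, 0.818 and 1.89 CPM to 6.87, 7.68, 3.90 and 3.80 CPM (log2 fold change 1.47, SE 0.284, limma, adjusted p = 0.0216). The groups were separate for all 4. Cdc7 was called in none of the 7 fits that left out a library, nor by edgeR, and Chaf1b only in that without unlasered library 1. Gadd45b was not called without unlasered library 2, lasered library 1 or lasered library 2. The remaining calls, named after their values were seen, were Cenpw, a kinetochore protein, with a log2 fold change of 0.79 and 0.263 to 0.636 against 1.00 to 1.56 CPM (limma, adjusted p = 0.0483), and Chek1, the replication checkpoint kinase, with -0.78 and 2.30 to 2.74 against 0.816 to 1.42 CPM (limma, adjusted p = 0.0420). Cenpw was called in 1 of the 7 fits that left out a library, that without unlasered library 1, and Chek1 in none.

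**Figure D5:**
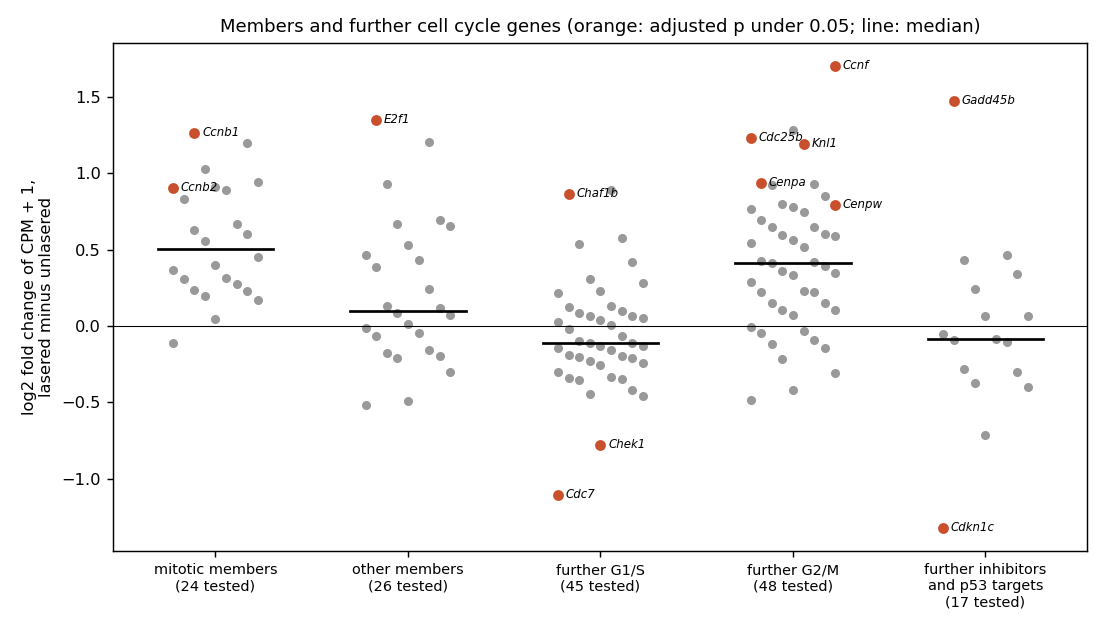
log2 fold change of CPM + 1, lasered minus unlasered, for the 24 mitotic genes, the other 26 genes and the further cell cycle genes tested in each list (a point per gene, lines for the medians, orange for an adjusted p under 0.05). The medians are 0.51 for the mitotic genes and 0.41 for the further G2/M genes, and -0.11 for the further G1/S genes.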

How the data were processed

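RNA of sorted rMG was sequenced in 7 libraries, 3 unlasered and 4 lasered. The authors prepared libraries with a SMARTer kit and Nextera XT. They removed adapters with cutadapt and duplicates with FastUniq, aligned the rest with Bowtie2 and used HTSeq with annotation version 90 to count reads per gene. Versions of cutadapt, FastUniq, Bowtie2 and HTSeq are not given in the sources used here. The table the authors deposited is headed TPM, but its values are CPM: 100% of the values of each library were whole multiples of what 1 read is worth, within 0.1 read, irrespective of gene length. These deposited CPM were used as they stand, and whole reads were recovered for the count tests.

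The main test, two-sided, was limma (version 3.58.1, with statmod 1.5.0, in R 4.3.3), fitted to log2(CPM + 1) with trended and robust empirical Bayes moderation. The Benjamini-Hochberg adjustment covered 17496 genes that reached 1 CPM in 3 or more libraries. A pseudocount of 1 understates the change of low genes. Alternatives were a pseudocount of 0.1, no filter, edgeR 4.0.16 and DESeq2 1.42.0 on recovered reads, median-of-ratios scaling, the replicate number as a block and each library left out. Thinning all libraries to the smallest, in 1 random draw of reads, was added after seeing the data. Exact permutation tests were run for read totals and marker sums. Other steps ran in Python 3.11.15 (numpy 2.4.6, pandas 2.3.3, matplotlib 3.10.9, scipy 1.17.1). The limma, edgeR and DESeq2 fits were tested on simulated data.

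Genes were matched to GENCODE M21 (GRCm38) for 99.1% of the listed genes and for all 50 described here. For 4492 genes, 3 of the 50 among them, some reads were listed jointly with another gene. Genes on the other strand overlap exons of 18 of the 50. The 50 genes, their role groups and the further lists were chosen with earlier results of these data known. Described in full are genes that passed the test, genes whose groups did not overlap and that average 1 CPM or more in either group, the 2 most abundant genes of each role group, the 3 Cdk inhibitors, Mki67 and Top2a, and of the further lists the 8 genes with the largest log2 fold change among those that passed.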

Additional observations from a re-analysis of the deposited data

Results flagged for a closer look

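In 4 of 57 levels compared over the 4 lasered libraries, 1 library lay apart from the other 3 by Dixon's criterion, which chance alone marks in about 1 of 20. Ccnd2 was 131.85 CPM in lasered library 2, where the others lay between 99.96 and 101.57 CPM. Mcm4 was 21.849 CPM in lasered library 2 and 31.788 to 32.187 CPM in the others. Mcm5 was 32.187 CPM in lasered library 3 and 17.935 to 19.132 CPM in the others. Mki67 was 8.1791 CPM in lasered library 1 and 4.5515 to 5.1449 CPM in the others. The part of the library in these values was not tested.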

How the results depend on the processing

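Of all genes tested, 1213 were called with limma, 385 with no filter on low values, 2318 with DESeq2 and 264 to 1248 with a library left out. The others gave 1193 (pseudocount 0.1), 1266 (edgeR), 1427 (median-of-ratios scaling) and 1115 (thinned reads). Of the 50 genes, 3 were called higher, 1 with no filter (E2f1), 7 with DESeq2, 5 with median-of-ratios scaling and 1 to 5 with a library left out (2 without unlasered library 1, 4 without lasered library 4). None was called lower except 1 with DESeq2 (Ccnd2). In both directions together, 774 of all genes were called without unlasered library 1 and 797 without lasered library 4. The share of all genes called higher was not computed for these fits, for no filter or for median-of-ratios scaling. The counts of the 50 genes in those fits therefore have no background in the same direction. E2f1 passed in 13 of 14 alternatives, Ccnb2 in 6 and Ccnb1 in 5. For the 26 genes described in full, 318 of 364 log2 fold changes under an alternative kept their direction and their side of the threshold, 14 passed only there and 18 no longer passed. The sign changed in 14, none of which passed: Mcm3 was 0.0367 with median-of-ratios scaling and 0.0740 without unlasered library 1, and Mcm6 0.0132 with median-of-ratios scaling, with the block and without lasered library 4. Rrm1 was 0.00353 with edgeR, 0.000756 with DESeq2, 0.0647 with median-of-ratios scaling, 0.0171 with thinned reads, and 0.0633, 0.0213 and 0.0682 without unlasered library 2, lasered library 1 and lasered library 2. Stmn1 was -0.0847 without unlasered library 3 and Cdkn2c 0.0964 without unlasered library 2. With each library left out in turn, the lowest and highest values were -0.1301 and 0.0740 for Mcm3, -0.1191 and 0.0132 for Mcm6, -0.0823 and 0.0682 for Rrm1, -0.0847 and 0.3135 for Stmn1, and -0.6624 and 0.0964 for Cdkn2c. The cause was not tested. Median-of-ratios scaling moved the median of all genes from -0.0142 to 0.0592. With the replicate number as a block, 3 genes of all genes and 0 of the 50 were called, and E2f1 had an adjusted p of 0.0904 (limma). In that fit lasered library 4, whose number no unlasered library shares, adds nothing to the difference. The same-numbered libraries did not deviate together (Pearson's r of -0.183, -0.126 and -0.0234 for pairs 1, 2 and 3, across genes), so the numbers are not taken as a pairing. Unlasered library 1, with the fewest reads, sets the depth limit of 0.147 CPM.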
